A study of Mus musculus with 12 samples.

Results

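A set of 9 genes that code for enzymes of triglyceride synthesis was followed in mouse liver: Gpam, Agpat2, Agpat3, Lpin1, Lpin2, Lpin3, Dgat1, Dgat2 and Mogat1. They were chosen by the pathway step of their product, with earlier results of these data known. All 9 were among the 22170 gene names of the liver RNA sequencing table and among the 11566 genes with enough signal to be tested. The livers came from 12 male C57BL/6J mice, 3 in each of 4 groups, and every mouse was housed alone. From 5 weeks of age the mice were fed for 16 weeks, to an age of 21 weeks, on a normal diet (the ND group), a high-fat diet (the HFD group), a high-fat diet with 1.5% by weight of an ethanol extract of chrysanthemum leaves (the CLE group, whose libraries are titled CLL), or a high-fat diet with 0.003% by weight of luteolin, a plant flavone (the LU group). The CLE and LU mice therefore ate the high-fat diet as well, and no group received the extract or luteolin on the normal diet. According to the study's methods all mice were fasted before the liver was taken, and the sequenced livers were picked as representative of larger groups. The comparison of HFD with ND asks what the diet did to the pathway, and the comparisons of CLE and LU with HFD ask what each additive did on top of that diet.

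Liver builds triglyceride mainly by the glycerol phosphate route. An acyltransferase places a fatty acid on glycerol 3-phosphate, a further acyltransferase adds another to give phosphatidic acid, a lipin removes the phosphate to give diacylglycerol, and a diacylglycerol acyltransferase adds the last fatty acid. A side route, prominent in the intestine, makes diacylglycerol directly from monoacylglycerol, and Mogat1 codes for an enzyme of that route. Newly made triglyceride is stored in lipid droplets or leaves the liver in very-low-density lipoprotein.

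Levels are given in FPKM, read fragments scaled to transcript length and to the mapped total of the library, summed over all transcripts with a gene's name. Because FPKM is divided by transcript length, levels can be set beside each other between genes. Differences are on the log2(FPKM + 1) scale from a limma fit of all 12 livers, with the Benjamini-Hochberg adjusted p over all genes tested and a threshold of 0.05. The deposited table holds no read counts, so the depth behind each value is unknown. No source says more of the replicates than that each is the liver of a separately housed mouse. Tissue markers fitted liver, with the 6 hepatocyte markers summing to between 9696 and 31439 FPKM in every library, although albumin (Alb) was listed at 0 in 11 of 12 libraries. The upper end of that range is the remaining library, of the LU group, where albumin was listed at 19853 FPKM. Markers of some other cell types rose with the diet and those of others did not, where 9.99% of all genes passed as higher. Of the markers tested, 0 of 2 for cholangiocytes, 0 of 2 for lymphocytes and 1 of 4 for endothelial cells passed. The 5 stellate cell and fibroblast markers summed to between 63.7 and 91.1 FPKM in ND and between 118 and 146 in HFD, and all 5 passed the test, while the 5 macrophage and Kupffer cell markers went from between 92.6 and 95.1 to between 139 and 207, with 3 of 5 passing. Of 6 adipocyte markers only Fabp4 and Cfd were high enough to be tested, both passing as higher in HFD, whereas Adipoq, Plin1 and Lep stayed at or below 0.759 FPKM in every liver. The part of these cells in the levels below was not tested, and in whole liver fewer cells of a type and less RNA per cell cannot be told apart.

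The pathway was present at every step, at very different levels. Over the 12 livers the mean level was highest for Dgat2 at 187 FPKM, followed by Lpin2 at 153, Agpat2 at 132, Agpat3 at 132, Gpam at 44.0, Dgat1 at 23.2, Mogat1 at 12.4, Lpin1 at 6.05 and Lpin3 at 1.89. Some neighbours in this order could be told apart in every liver and others could not. Agpat3 exceeded Gpam, Gpam exceeded Dgat1, and Lpin1 exceeded Lpin3 in 12 of 12 livers. Dgat2 exceeded Lpin2 in 10 of 12, Lpin2 exceeded Agpat2 in 11 of 12, and Agpat2 exceeded Agpat3 in 5 of 12. Mogat1 was below Dgat1 in 9 of 12 livers and above Lpin1 in 9 of 12, and the 3 livers in which it exceeded Dgat1 were the HFD livers. The livers in which it was below Lpin1 were ND mouse 3, CLE mouse 4 and LU mouse 3. Its level ranged 6.06-fold from the lowest liver to the highest. For the other members, apart from Lpin1 (4.39-fold) and Lpin3 (2.72-fold), that range was between 1.49-fold and 1.96-fold.

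Mogat1 stood out in HFD livers. Of the 9 members, 1 rose on the high-fat diet, none fell, and 8 did not pass. Across all genes tested 12.1% passed in this comparison, 9.99% as higher. That was 1156 of 1400 calls as higher in the values as deposited, and 620 of 1124 after median-of-ratios scaling, under which Mogat1 rose as well. With CLE 1 member rose and 1 fell, against 6.03% of all genes, and with LU 1 fell and none rose, against 1.03% of all genes. The gene that rose with the diet and fell with both additives was Mogat1, and the gene that rose with CLE was Dgat1. The median difference of HFD from ND was 0.090 over the 9 members and 0.11 over all genes tested, so the values below carry a general upward shift of that size.

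**Figure D1:**
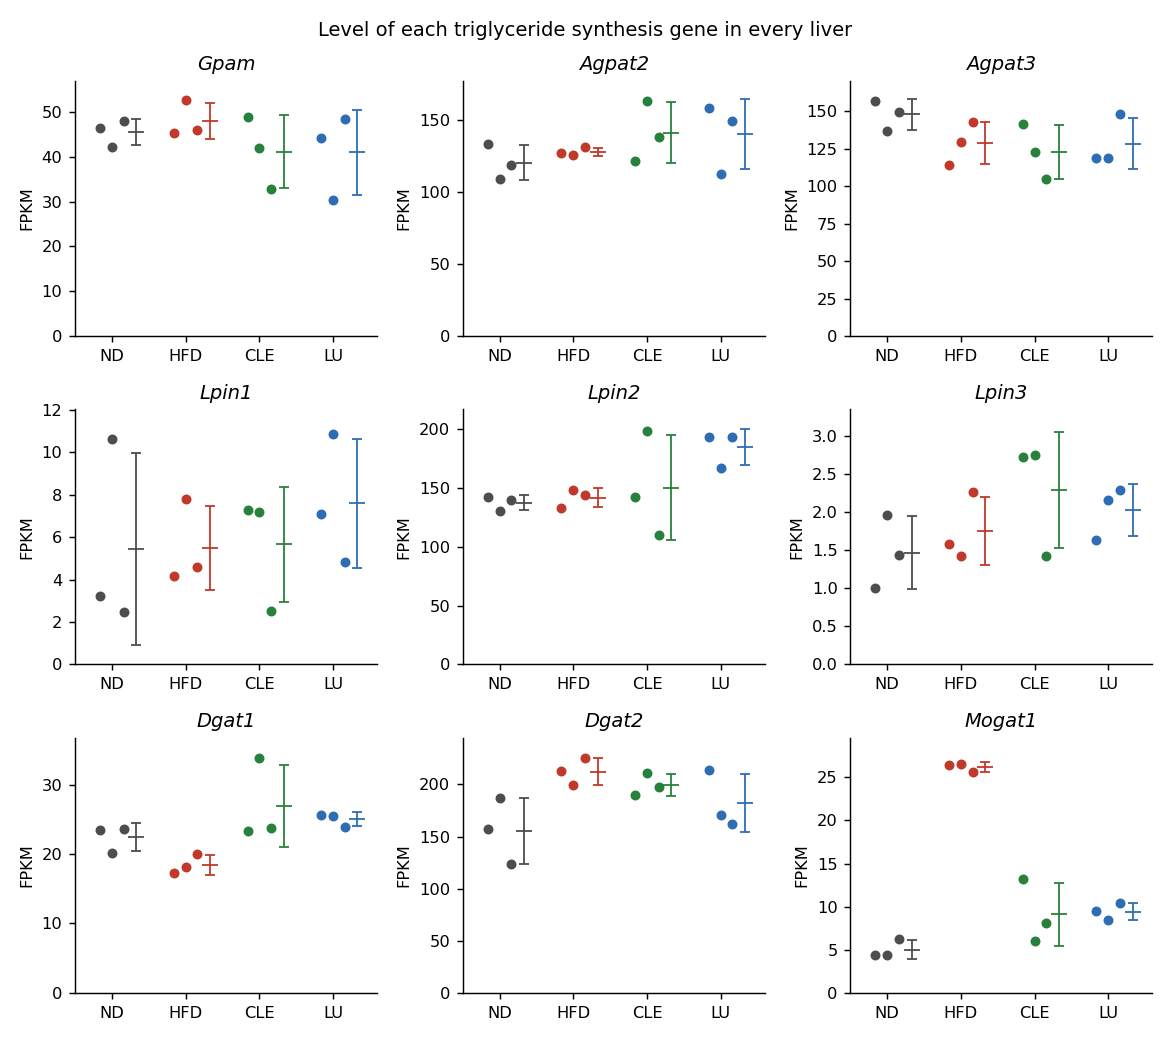
Each panel plots the level of 1 gene in FPKM (vertical axis, starting at 0) for the ND, HFD, CLE and LU groups; each point is 1 liver, and the bar beside it gives the mean ± SD of 3 livers. Mogat1 in the HFD livers lies between 25.6 and 26.6 FPKM, above the 9 other livers, whose highest is 13.2.

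Mogat1 (monoacylglycerol O-acyltransferase 1) lies on the plus strand of chromosome 1 at chr1:78510991-78538173 (ENSMUSG00000012187, GRCm38, GENCODE M21). Its level was 4.40, 4.39 and 6.28 FPKM in the 3 ND livers and 26.4, 26.6 and 25.6 in the 3 HFD livers. The CLE livers held 13.2, 6.00 and 8.11 FPKM and the LU livers 9.45, 8.47 and 10.4. All HFD livers lay above all others, the lowest CLE liver lay below the highest ND liver, and the LU livers lay between the ND and HFD groups without overlap with either. Such separation was common: 29.1% of all genes tested lay wholly higher in HFD than in ND. In either direction it was found for 31.3% of all genes between CLE and HFD and for 30% between LU and HFD. Of the 11566 genes tested, 1732 lay wholly lower in CLE than in HFD and 1955 wholly lower in LU. As mean ± SD (n = 3) the Mogat1 levels were 5.02 ± 1.09 FPKM in ND, 26.2 ± 0.545 in HFD, 9.09 ± 3.69 in CLE and 9.44 ± 0.958 in LU.

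The rise of Mogat1 from ND to HFD was 2.19 on the log2 scale (SE 0.21, 95% interval 1.74 to 2.64, adjusted p = 5.4e-05), a 5.22-fold ratio of the mean levels. It ranked 23 by p-value among the 11566 genes tested. Set against the median of all genes the rise was 2.07. With CLE the level fell by 1.49 from HFD (SE 0.21, adjusted p = 0.0047), and with LU it fell by 1.39 (adjusted p = 0.0095). In rank by p-value these falls stood at 19 and 20 of all genes tested in their comparisons. By the means of the gene sum, CLE livers kept 19.2% of the excess of HFD over ND and LU livers 20.8%. The part kept differed between the leading transcripts described below. In both additive groups it was larger than this for the longer transcript and smaller for the shorter. The CLE share moved with single mice, to 9.58% without CLE mouse 2 and to 26.5% without CLE mouse 4, while that of LU ran from 18.6% to 23.1% without a mouse. The additives were compared directly as well, and the difference was -0.11 with a 95% interval of -0.56 to 0.34 (adjusted p = 0.98), so differences of up to about that size in either direction are not excluded. The additives were given at different doses. CLE, LU and ND comparisons with HFD share the HFD livers.

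Both additive groups remained somewhat above ND for Mogat1 in the fit. CLE exceeded ND by 0.70 (adjusted p = 0.028) and LU exceeded it by 0.80 (adjusted p = 0.025), in comparisons where 27% and 14.9% of all genes passed. Neither of these was firm: over 13 other settings the adjusted p reached 0.40 for CLE, whose livers overlapped those of ND, and 0.71 for LU. The comparison of HFD with ND passed under all 12 other settings and with each mouse left out, as did CLE with HFD. For LU with HFD the call was lost in a single case, without LU mouse 3, where the fall was 1.32 (adjusted p = 0.059).

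Most of the Mogat1 level came from 2 annotated transcripts. ENSMUST00000012331, with 6 exons and 1178 bases, is the longer, and ENSMUST00000152111 is a fragment of 2 exons and 397 bases that lies almost wholly within the longer transcript's leading exons. Their starts lie close together, at base 78511867 and base 78511812 of chromosome 1. Together they made up 93.8% of the gene's FPKM in HFD and 93.9% in CLE (mean of 3 livers), but 75.7% in ND and 72.5% in LU, with 46.5% in the lowest LU liver. Because the fragment is short, its FPKM weighs more in the sum than its share of reads would.

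**Figure D2:**
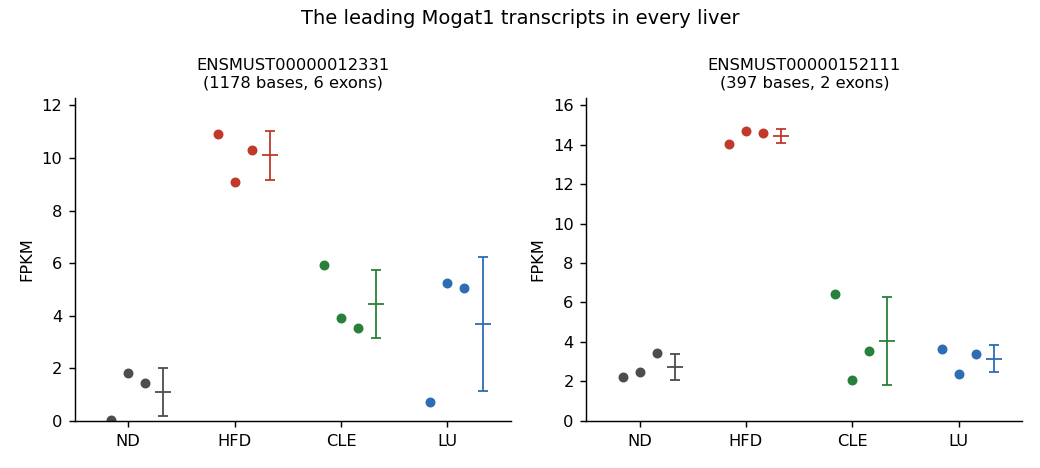
The vertical axes give FPKM of the longer transcript (left) and of the 2-exon transcript (right) of Mogat1 for the ND, HFD, CLE and LU groups; points are livers and bars are mean ± SD of 3. For both transcripts the 3 HFD livers lie above every other liver.

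The longer transcript averaged 1.10 ± 0.926 FPKM in ND, 10.1 ± 0.930 in HFD, 4.46 ± 1.29 in CLE and 3.67 ± 2.55 in LU. Its lowest HFD liver held 9.09 FPKM and the highest liver of any other group 5.94. The fragment averaged 2.72 ± 0.646 FPKM in ND, 14.4 ± 0.343 in HFD, 4.03 ± 2.23 in CLE and 3.14 ± 0.686 in LU. Taken alone, the fragment (the transcript with the highest mean) still fell by 1.91 with LU, but its differences from ND were 0.36 for CLE and 0.16 for LU, and neither passed.

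The promoter window that RefSeq gives for Mogat1 is shown because this gene was the only member that passed in the comparison of HFD with ND. It is chr1:78510810-78511109 on the plus strand (GRCm38.p6), 300 bases around a start upstream of those used by the leading transcripts. Its last base lies 703 bases before the start of the fragment and 758 bases before that of the longer transcript. Transcripts beginning upstream of both made up 12.8% of the gene's FPKM in ND, 5.88% in HFD, 0.705% in CLE and 21.5% in LU (mean of 3 livers), with 50.8% in the highest LU liver. Capitals mark the only match to the motifs searched, CCAAT, which is found here on the minus strand.

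Mogat1 promoter window: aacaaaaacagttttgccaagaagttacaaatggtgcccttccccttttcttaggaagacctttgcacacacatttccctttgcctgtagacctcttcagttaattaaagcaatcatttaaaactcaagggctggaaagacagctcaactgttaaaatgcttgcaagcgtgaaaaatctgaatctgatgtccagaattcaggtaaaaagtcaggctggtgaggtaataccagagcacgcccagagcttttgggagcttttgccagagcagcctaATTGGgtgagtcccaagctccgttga

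The other motifs searched on both strands were the nuclear receptor half-site, spelled AGGTCA, the E-box bound by helix-loop-helix factors, spelled CACGTG, the GC box, spelled GGGCGG, and the TATA box, searched as TATAAA. None of these letters are in this window. Of 32851 RefSeq promoter windows of this length, 37.4% hold the CCAAT motif, 16.3% the half-site, 7.15% the E-box, 35.7% the GC box and 13.6% the TATA box. Windows were given for 7 of the 9 members (11 windows in all), and the CCAAT motif was in those of 3 members, the half-site in 2, the E-box in 2, the GC box in 4 and the TATA box in 0. Counted by window, as the shares above are, the motifs were in 3, 2, 2, 5 and 0 of the 11 in the same order. The Mogat1 window had a GC content of 43.7%, where the median over all windows was 52.7%.

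The genes whose pattern over the 12 livers was most like that of Mogat1 were Slc16a7, a monocarboxylate transporter (Pearson r = 0.97), Pcsk6, a proprotein convertase (r = 0.96), and Prlr, the prolactin receptor (r = 0.96). Slc16a7 averaged 28.7 FPKM in ND, 72.0 in HFD, 42.3 in CLE and 41.9 in LU. These are the highest correlations among all genes tested and share libraries and group differences, so they describe likeness only.

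The step that closes the pathway has a pair of unrelated enzymes, and the differences of their genes between ND and HFD had opposite signs, neither past the threshold. Dgat2 (chr7:99153658-99182719, minus strand) is the enzyme tied to newly made fatty acids. It stood at 157, 187 and 123 FPKM in ND, 212, 199 and 226 in HFD, 190, 211 and 198 in CLE, and 214, 170 and 162 in LU. The HFD livers lay above all ND livers, by 0.46 on the log2 scale (SE 0.15, adjusted p = 0.061). Groups that do not overlap in this direction were found for 29.1% of all genes tested. Without ND mouse 3 the difference was 0.60 and passed (adjusted p = 0.026). CLE and LU differed from HFD by -0.089 (adjusted p = 0.71) and -0.23 (adjusted p = 0.39), and their livers overlapped those of HFD.

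Dgat1 (chr15:76502015-76511953, minus strand) codes for the enzyme that also re-esterifies fatty acids taken up from outside. Its level was 23.5, 20.1 and 23.7 FPKM in ND, 17.2, 18.1 and 20.0 in HFD, 23.3, 33.8 and 23.7 in CLE, and 25.7, 25.5 and 23.8 in LU. Every HFD liver was below every liver of the other groups. Relative to ND the difference was -0.27 (SE 0.14, adjusted p = 0.22), and groups that do not overlap in this direction were found for 7.44% of all genes. With CLE the level rose by 0.51 (95% interval 0.21 to 0.80, adjusted p = 0.047), and with LU the difference was 0.42 (interval 0.13 to 0.72, adjusted p = 0.13; 0.037 without CLE mouse 4). Groups that do not overlap in either direction made up 31.3% of all genes for CLE and 30% for LU. Wholly higher than HFD were 1888 of 11566 genes tested with CLE and 1516 with LU.

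The call for CLE was a narrow one. It was lost under 8 of 12 other settings and in 11 of 12 fits without a mouse, with adjusted p from 0.019 to 0.93. CLE mouse 4, at 33.8 FPKM, was the highest liver, and without it the difference was 0.34 (adjusted p = 0.16). The libraries also differed in GC bias by group: the correlation of each library's deviation with gene GC content (Spearman) ran from -0.37 to -0.14 where the diet held no additive (ND, HFD) and from 0.16 to 0.48 where it did (CLE, LU). Corrected for GC content, Dgat1 differed by 0.33 between CLE and HFD (adjusted p = 0.11) and was lower in HFD than in ND by a difference of -0.42 that passed (adjusted p = 0.040). GC bias of the libraries and treatment cannot be told apart here.

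Dgat1 in CLE differed mostly in transcripts that keep an intron. The main coding transcript, ENSMUST00000023214, was at 13.8 ± 1.28 FPKM in ND, 10.7 ± 0.690 in HFD, 11.02 ± 2.12 in CLE and 12.3 ± 0.805 in LU, and alone it differed between CLE and HFD by 0.024 (adjusted p = 0.93). The 5 annotated retained-intron transcripts summed to 3.17, 4.08 and 5.51 FPKM in HFD, 5.74, 16.3 and 9.75 in CLE, and 7.27, 8.89 and 6.73 in LU. All CLE and LU livers were above all HFD livers for these forms. Their sum was 4.48 ± 0.511 FPKM in ND, 4.25 ± 1.18 in HFD, 10.6 ± 5.31 in CLE and 7.63 ± 1.12 in LU, and the exact two-sided permutation p was 0.1 for CLE and for LU against HFD, the smallest that 3 against 3 can give. The remaining Dgat1 transcripts summed to 17.9 ± 1.82 FPKM in ND, 14.2 ± 0.257 in HFD, 16.4 ± 2.07 in CLE and 17.4 ± 0.926 in LU. For these, CLE overlapped HFD (exact permutation p = 0.4), while ND and LU lay wholly above HFD (p = 0.1 in each exact permutation test). As a share of the gene's FPKM, retained-intron forms were at 20.1% ± 2.05 in ND, 22.9% ± 4.60 in HFD, 37.9% ± 12.1 in CLE and 30.5% ± 3.80 in LU. CLE overlapped HFD in this share (24.6% in CLE mouse 2 and 27.6% in HFD mouse 18, exact permutation p = 0.2), while LU lay above HFD (exact permutation p = 0.1). The split was chosen after the transcript values were seen, and the sum also holds a transcript on the opposite strand of Dgat1 at 7.68% of the gene's FPKM.

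**Figure D3:**
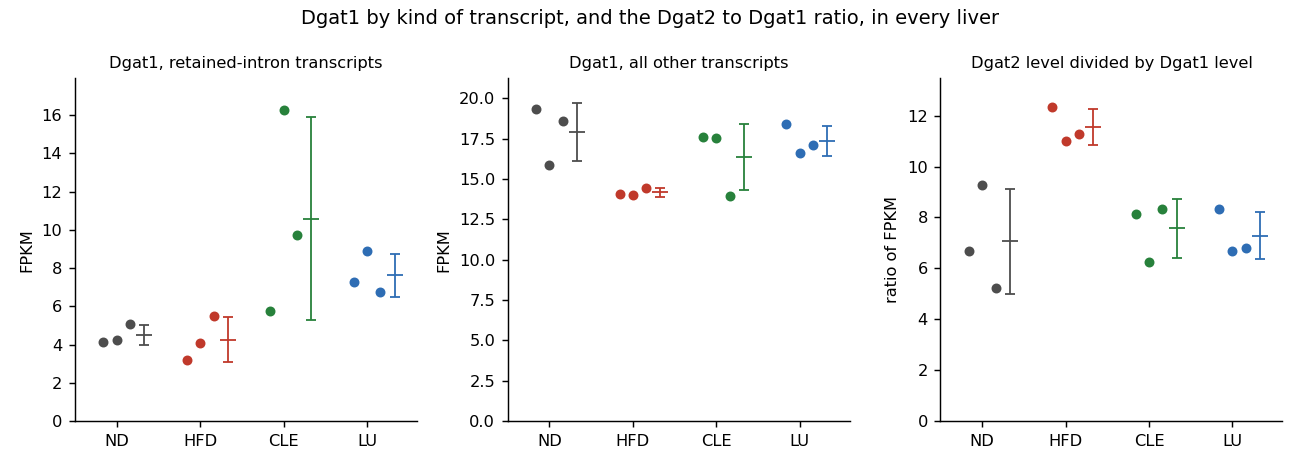
From left to right the vertical axes give FPKM of the Dgat1 retained-intron transcripts, FPKM of all other Dgat1 transcripts, and the ratio of the Dgat2 level to the Dgat1 level, for the ND, HFD, CLE and LU groups; points are livers and bars are mean ± SD of 3. The ratio lies between 11.01 and 12.3 in the HFD livers and at or below 9.28 in the others.

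Because the Dgat2 level was high and the Dgat1 level low in HFD, their ratio within a liver set that group apart. The Dgat2 level divided by the Dgat1 level was 6.68, 9.28 and 5.22 in the ND livers, 12.3, 11.01 and 11.3 in HFD, 8.15, 6.23 and 8.33 in CLE, and 8.34, 6.68 and 6.81 in LU. No HFD liver overlapped any other group. The means were 7.06 ± 2.06, 11.5 ± 0.698, 7.57 ± 1.16 and 7.28 ± 0.922 (SD, n = 3), and each comparison with HFD had an exact permutation p of 0.1, the smallest possible. Against ND that p adds nothing, because each gene alone already separated HFD from ND. Against CLE and LU, Dgat1 alone already did so. Over 3 other settings the mean ratio ran from 6.52 to 9.54 in ND and from 10.1 to 15.3 in HFD. It ran from 4.57 to 9.47 in CLE and from 4.72 to 8.51 in LU. The ratio does not depend on how libraries are scaled, but it was chosen after the values of both genes were seen. The GC bias of the libraries need not cancel in it. Its divisor also holds the retained-intron forms, which were higher in CLE and LU than in HFD.

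The assembled transcripts of Dgat2 were not tested apart, and their values are given as a description. The annotated coding transcript, ENSMUST00000033001, averaged 129 ± 38.5 FPKM in ND, 162 ± 32.8 in HFD, 101 ± 45.1 in CLE and 105 ± 14.6 in LU. Fitted alone, it differed from HFD by -0.77 with CLE and by -0.62 with LU. Neither difference passed, nor did that of HFD from ND. A variant that the authors' assembly built from it was at or below 0.00218 FPKM in all ND livers. In HFD the same variant was at 0.0588, 0.0642 and 34.2 FPKM from lowest to highest, and in CLE and LU at 34.3 to 91.1. Assembled variants share most of their sequence with the annotated form, and how fragments were divided between them was not tested.

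The members of the entry steps, Gpam, Agpat2 and Agpat3, did not pass in any comparison of HFD with ND or of the additives with HFD. Gpam (chr19:55067268-55127238, minus strand), the mitochondrial glycerol 3-phosphate acyltransferase that commits fatty acids to glycerolipid, was at 46.6, 42.3 and 47.9 FPKM in ND and 45.4, 52.6 and 46.1 in HFD. In CLE it was at 48.9, 41.9 and 32.8, and in LU at 44.3, 30.3 and 48.5. Groups overlapped throughout, with a difference of 0.072 between HFD and ND, of -0.23 from HFD with CLE and of -0.25 with LU, each with an SE of 0.17. LU mouse 3 had the lowest Gpam of all 12 livers.

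Agpat2 (chr2:26593057-26604417, minus strand) and Agpat3 (chr10:78269178-78352489, minus strand) code for acyltransferases that make phosphatidic acid from lysophosphatidic acid. Agpat2 averaged 120 ± 12.0 FPKM in ND, 128 ± 2.72 in HFD, 141 ± 21.0 in CLE and 140 ± 24.1 in LU. For Agpat3 the means were 148 ± 10.1, 129 ± 14.1, 123 ± 18.2 and 128 ± 17.1. Neither passed (adjusted p from 0.37 to 0.98 over the 3 comparisons), and their groups overlapped in each of them. The 95% intervals for HFD against ND, -0.22 to 0.40 for Agpat2 and -0.49 to 0.093 for Agpat3, leave room for changes of that size.

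The lipins are phosphatidic acid phosphatases that also act in the nucleus, and Lpin1 was the member that varied most between mice of a group. Lpin1 (chr12:16535669-16610966, minus strand), a gene known for its fasting and daily rhythms, was at 3.22, 10.6 and 2.47 FPKM in ND and 4.16, 7.78 and 4.58 in HFD. The CLE livers held 7.30, 7.17 and 2.54 and the LU livers 7.08, 10.8 and 4.85. Its SD was between 35.9% and 82.9% of the mean within a group, more than that of any other member in each of the 4 groups, and its difference of 0.19 between HFD and ND had a 95% interval of -0.77 to 1.15. A score of clock genes (mean standardized log2 level, signed by phase) was between -1.64 and -0.29 in ND libraries, between -0.55 and 0.29 in HFD, and between 0.22 and 1.08 in CLE and LU. Its part in the Lpin1 levels was not tested beyond a fit with the score as covariate, where the difference of HFD from ND was -0.60 and did not pass.

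Lpin2 (chr17:71182560-71249817, plus strand), the most abundant lipin gene in these livers, was at 142, 130 and 139 FPKM in ND and 133, 148 and 144 in HFD. CLE spread widely, at 142, 199 and 110, whereas LU stood at 193, 167 and 193. The LU livers lay above all ND and HFD livers, but the difference of 0.38 from HFD (SE 0.17, 95% interval 0.015 to 0.74) did not pass (adjusted p = 0.23). Over 12 other settings that difference ran from 0.022 to 0.90 and never passed. In FPKM most of the gap lay in an assembled transcript, at a mean of 47.3 in HFD and 88.8 in LU. Between LU and HFD, 30% of all genes had groups that do not overlap in either direction, and 1516 of 11566 lay wholly higher in LU. Lpin3 (chr2:160880670-160906002, plus strand) was the scarcest member, at 1.47 ± 0.478 FPKM in ND, 1.76 ± 0.444 in HFD, 2.30 ± 0.761 in CLE and 2.03 ± 0.344 in LU. Its differences between 0.14 and 0.24 in these 3 comparisons lay within the spread of the mice.

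**Figure D4:**
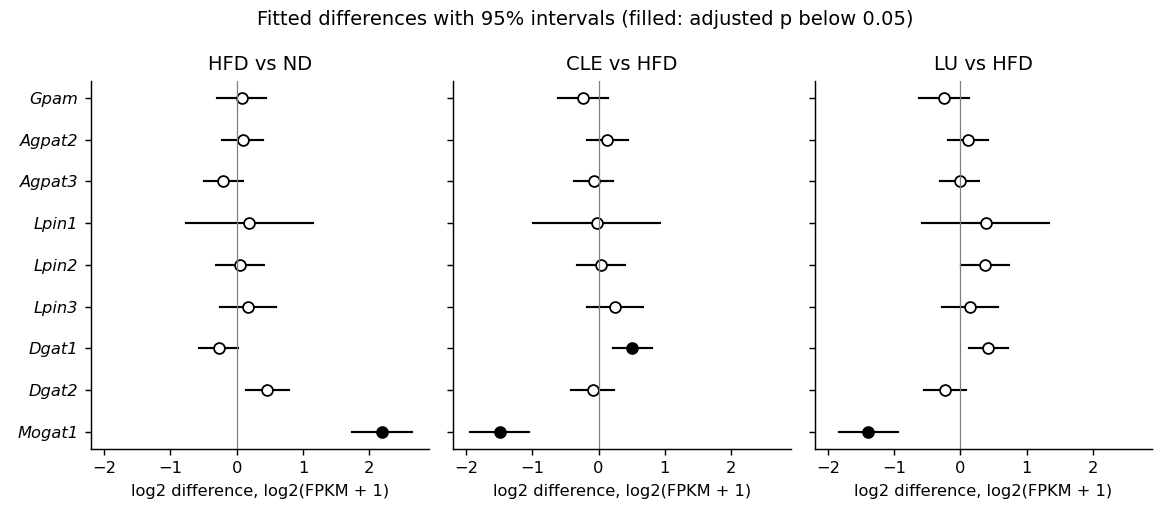
Each row is 1 of the 9 genes and each panel 1 comparison; the horizontal axis gives the difference on the log2(FPKM + 1) scale, points are fitted differences and lines their 95% intervals, and filled points have an adjusted p below 0.05. Mogat1 is filled in all 3 panels (2.19, -1.49 and -1.39) and Dgat1 only for CLE against HFD (0.51).

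Other isoforms of the same steps were looked at beside the members. Of 7 further acyltransferase genes, 6 could be tested (Mogat2 was too low), and on the high-fat diet 2 rose, 1 fell and 3 did not pass, where 9.99% of all genes passed as higher and 2.11% as lower. Gpat3 (Agpat9 in the table), a glycerol 3-phosphate acyltransferase of the endoplasmic reticulum, was at 4.11, 3.44 and 4.80 FPKM in ND and 11.04, 10.8 and 11.5 in HFD. That rise was 1.25 on the log2 scale (SE 0.28, adjusted p = 0.012). Gpat4 (Agpat6 in the table), which has the same activity, fell by 0.67 (adjusted p = 0.019), from 119 ± 7.58 to 74.1 ± 6.14 FPKM. Gpat2, a germ-line isoform low in liver, rose by 0.36 from 1.07 to 1.66 FPKM (adjusted p = 0.042).

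Neither additive moved Gpat3 past the threshold. Its level was 11.8, 13.2 and 8.18 FPKM in CLE and 6.72, 4.45 and 13.7 in LU, so the LU mice ranged from the ND level to above the HFD livers. Agpat1, which shares the activity of Agpat2, was the single gene of the wider pathway to pass in a comparison of an additive with HFD. It rose by 0.83 with CLE (SE 0.20, adjusted p = 0.036), from 5.59 ± 1.29 to 10.8 ± 2.84 FPKM, a call that held under 6 of 12 other settings and in 6 of 12 fits without a mouse. In LU it was at 6.57 ± 0.985 FPKM, a difference of 0.21 from HFD (adjusted p = 0.55), and CLE and LU did not differ past the threshold (0.62, adjusted p = 0.97).

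Among 8 genes that supply the substrates, 3 fell on the high-fat diet, none rose and 5 did not pass, against 2.11% of all genes that passed as lower. Acsl1, the main long-chain acyl-CoA synthetase of liver, fell by 0.76 (SE 0.14, adjusted p = 0.0040), from 1034 ± 33.9 to 615 ± 88.5 FPKM. Acsl5, another synthetase, fell by 0.76 (adjusted p = 0.0042), and Gk (Gyk in the table), the glycerol kinase, fell by 0.59 (adjusted p = 0.030). Gpd1, which makes glycerol 3-phosphate from a glycolytic intermediate, differed by -0.30 (adjusted p = 0.26). None of these 8 passed with CLE or LU by limma (0 at an unadjusted p under 0.05 in both, where 29.5% and 20.3% of all genes were under it).

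Regulators of the pathway were mixed. Of 8 transcription factors and coactivators, Srebf1 and Pparg rose on the high-fat diet and 6 did not pass, against 9.99% of all genes that passed as higher. Srebf1, which drives fatty acid synthesis genes in response to insulin, rose by 1.72 (SE 0.36, adjusted p = 0.0089), from 10.99, 14.1 and 14.5 FPKM to 46.9, 40.1 and 50.4. Pparg, a lipid-activated receptor best known from adipocytes, rose by 0.70 (adjusted p = 0.023), from 7.53 ± 1.37 to 12.8 ± 1.79 FPKM. In CLE, Pparg was at 11.7, 6.82 and 7.49 FPKM, and its difference of -0.54 from HFD did not pass (adjusted p = 0.075). Srebf1 in CLE and LU differed from HFD by -0.19 (adjusted p = 0.76) and -0.62 (adjusted p = 0.34), with LU mouse 3 at 12.6 FPKM and the other LU mice at 42.0 and 46.7. Of the branch to other phospholipids and the phosphatase that activates lipins, 3 of 4 genes could be tested (Cds1 was too low) and Cnep1r1, the regulatory subunit of that phosphatase, rose by 0.55 (adjusted p = 0.016).

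**Figure D5:**
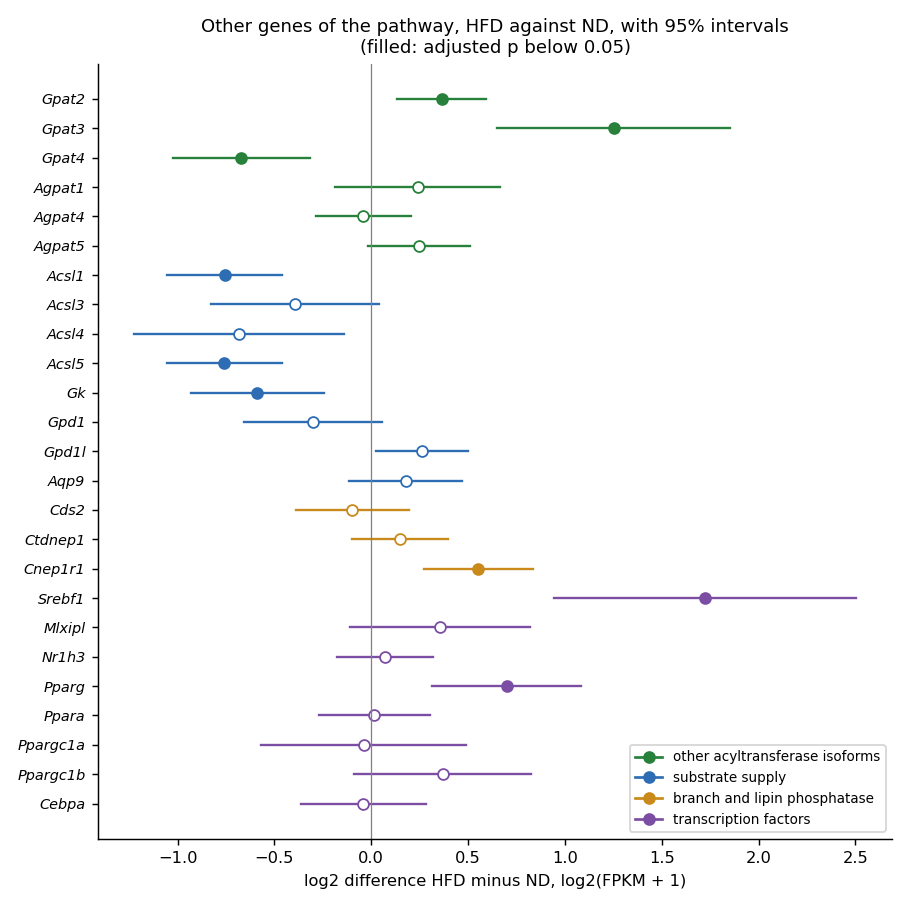
Each row is 1 of 25 further genes of the pathway, coloured by list; the horizontal axis gives the difference of HFD from ND on the log2(FPKM + 1) scale, with 95% intervals, and filled points have an adjusted p below 0.05. Srebf1 (1.72) and Gpat3 (1.25) lie farthest to the right, and Acsl5 and Acsl1 (both -0.76) farthest to the left.

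Some calls of the diet comparison were less firm than others. Over 12 other settings, that of Acsl5 passed in 11, that of Srebf1 in 10, those of Gpat3, Gpat4, Acsl1, Cnep1r1 and Pparg in 9 each and that of Gk in 8, and that of Gpat2 passed in 5 of the 9 settings that gave a value. The adjusted p reached 0.10 for Gpat3, 0.18 for Gpat4, 0.21 for Acsl1, 0.067 for Acsl5 and 0.17 for Srebf1. For Gk it reached 0.41, for Gpat2 0.36, for Pparg 0.25 and for Cnep1r1 0.16. In 12 fits without a mouse, those of Gpat3, Acsl1, Acsl5 and Srebf1 passed in all 12, that of Cnep1r1 in 9, those of Gpat4, Gk and Pparg in 8 each and that of Gpat2 in 5.

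Over the 4 lists, 25 of 27 genes were tested. On the high-fat diet 5 rose and 4 fell, where 9.99% of all genes passed as higher and 2.11% as lower. With CLE 1 rose and none fell, where 6.03% of all genes passed. With LU 0 passed by limma, where 1.03% of all genes did, and 5 of 25 had an unadjusted p under 0.05, close to the 20.3% of all genes. Against ND, 8 were higher and 6 lower in CLE, where 27% of all genes passed, and 3 were higher and 4 lower in LU, where 14.9% did. Across the 9 members the moderated F test among the 4 groups passed for Mogat1 (adjusted p = 3.8e-04) and missed for Dgat1 (adjusted p = 0.051), Dgat2 (adjusted p = 0.10) and the other 6, where 24.4% of all genes passed. Directly compared, CLE and LU differed in 0 of the 9 members past the threshold by limma (0 at an unadjusted p under 0.05, against 4.39% of all genes), where 0.00865% of all genes passed.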

How the data were processed

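Liver poly(A) RNA of 12 mice was sequenced by the study as paired ends on an Illumina HiSeq. The submitters' processing notes name CASAVA 1.8.2, Bowtie2 2.2.3, TopHat2 2.0.12 and Cufflinks 2.2.1, and the authors deposited 1 table of FPKM values for 152210 transcripts, of which 78786 were annotated and 73424 assembled from these reads. The genome build is not given in the sources used here, but 85.6% of the annotated transcripts lay at their GENCODE M21 (GRCm38) position, and coordinates are from that annotation. The study's methods mention DEGES/edgeR normalization factors, and whether these entered the FPKM is not stated. The table holds no counts, so depth and counting error are unknown, and FPKM of the isoforms are Cufflinks estimates.

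Values were summed by gene name, leaving out 6316 rows without one. The members had 105 transcript rows. The 11566 genes averaging 0.5 FPKM or more were tested on log2(FPKM + 1) with limma 3.58.1 in R 4.3.3 (variance trend on, all 12 mice in a single fit, 3 per group, 12.8 degrees of freedom), two-sided. A difference on this scale understates changes of low genes. In simulated data with independent spread for each gene, 200 of 11566 genes were changed by 1.5 in HFD against ND. These were drawn from genes with a mean log2 level above 1.5. Of them 97% were recovered, and with none changed there were 0 calls. Smaller changes, lower genes and shared bias of libraries were not simulated. For single values the test was an exact two-sided permutation test (scipy 1.17.1). Figures were drawn with matplotlib 3.10.9.

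The named genes were the 9 members, the members of 4 lists of related genes that passed a test with up to 3 that did not, and the 3 genes most like each of Mogat1 and Dgat1 by Pearson's r. For Dgat1 these were Inca1, Lgals4 and Cntfr (r from 0.96 to 0.98). The members and lists were chosen with earlier results of these data known, as was the choice of tests. Mouse numbers shared between groups did not pair the mice and were not used in the main fit. Alternatives covered the pseudocount, the filter, scaling, the mice fitted, the variance trend, the transcripts summed, GC content (98.7% of genes tested had a value), a clock-gene score, a replicate block and each mouse left out. Summing by GENCODE M21 gene was chosen after seeing the data.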

Additional observations from a re-analysis of the deposited data

How the results depend on the processing

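Mogat1 kept its direction and its call in HFD against ND (2.05 to 2.52 over 12 other settings) and in CLE against HFD (-1.74 to -1.29), and in LU against HFD over the same settings (-1.91 to -1.18). The table gives no counts, so depth limits cannot be stated, and with 3 mice per group the differences of the other members have wide intervals. For LU against HFD the number of members that passed did not change with any setting. For HFD against ND it was 2 with the GC content correction. For CLE against HFD it was 1 with no filter on low values, median-of-ratios scaling, the 2 groups alone, no variance trend, the leading transcript (highest mean) alone, known transcripts alone, the GC content correction and the clock-gene score. For CLE against ND it was 0 with no filter, quantile normalization, the 2 groups alone, the leading transcript, the clock-gene score and the replicate block. With median-of-ratios scaling and the GC content correction it stayed at 1, but Mogat1 no longer passed and Agpat3 was lower instead (-0.45 and -0.57). For LU against ND it was 0 with no filter, the GC content correction, the clock-gene score and the replicate block, and 2 with the 2 groups alone (Mogat1 and Lpin2). With the leading transcript it stayed at 1, but this was Lpin2 (1.03), not Mogat1. The leading Lpin2 transcript is an assembled one. The cause was not tested.

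Over all genes tested, HFD against ND gave 645 calls with the leading transcript, 661 with known transcripts and 369 with the clock-gene score (1400 in the values as reported). With quantile normalization 585 of 1050 of its calls were higher, and with the GC content correction 628 of 1144. CLE against HFD (698) gave 127 with no filter, 1095 with quantile normalization, 91 with the 2 groups alone, 263 with the leading transcript, 335 with the GC content correction and 45 with the clock-gene score. LU against HFD (119) gave 57 with no filter, 262 with the 2 groups alone and 41 with the clock-gene score. CLE against LU (1) gave 3 with no filter, 0 with a mean of at least 5 FPKM, and 2 with quantile normalization, the leading transcript, known transcripts and the replicate block. CLE against ND (3119) gave 1809 with the 2 groups alone, 1984 with the GC content correction, 7 with the clock-gene score and 339 with the replicate block. LU against ND (1727) gave 13 with the clock-gene score and 19 with the replicate block.

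Differences that changed sign belonged to members that did not pass in that comparison in the values as reported. For HFD against ND, median-of-ratios scaling gave -0.085 for Gpam, -0.068 for Agpat2 and -0.12 for Lpin2, quantile normalization -0.034 for Gpam, -0.028 for Lpin2 and -0.046 for Lpin3, and the GC content correction -0.064 for Gpam, -0.053 for Agpat2 and -0.082 for Lpin2. In the same comparison known transcripts gave -0.0074 for Lpin2 and -0.048 for Lpin3, and the clock-gene score -0.60 for Lpin1, -0.058 for Lpin2 and -0.12 for Lpin3. For CLE against HFD, the leading transcript gave 0.12 for Gpam and -0.21 for Agpat2, known transcripts -0.14 for Agpat2, 0.089 for Lpin1, -0.31 for Lpin2 and -0.055 for Lpin3, the GC content correction -0.097 for Agpat2, and the clock-gene score -0.018 for Lpin2. For LU against HFD, the leading transcript gave 0.20 for Gpam and -0.0031 for Agpat2, the GC content correction -0.027 for Agpat2, median-of-ratios scaling 0.022 for Agpat3, and the clock-gene score 0.060 for Agpat3, -0.11 for Lpin1 and -0.033 for Lpin3. For Dgat1, the leading transcript gave -0.16 for CLE against LU, -0.31 for CLE against ND and -0.15 for LU against ND, the GC content correction -0.091 and -0.10 against ND, and the replicate block -0.031 for CLE against LU. For Mogat1 in CLE against LU, the leading transcript gave 0.20 and the replicate block 0.0028.

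With each mouse left out in turn, members that passed numbered 1 to 2 in HFD against ND, 1 to 2 in CLE against HFD, 0 to 2 in LU against HFD, 0 to 2 in CLE against ND and 0 to 2 in LU against ND. All genes that passed numbered 656 (without ND mouse 2) to 1663, 28 (without HFD mouse 15) to 2190 (without CLE mouse 2), 11 (without LU mouse 3) to 545 (without CLE mouse 4), 1594 to 3681 and 640 to 2495 in the same order, and 1 to 3 in CLE against LU. Sign changes occurred for Agpat3 in CLE (-0.18 to 0.036) and LU (-0.11 to 0.068) against HFD, for Lpin1 in HFD against ND (-0.15 to 0.72) and CLE against HFD (-0.23 to 0.38), for Lpin2 in CLE against HFD (-0.18 to 0.24), and in CLE against LU for Dgat1 (-0.083 to 0.17) and Mogat1 (-0.38 to 0.13). The known transcripts of Gpam fell below the filter and gave no value. Mouse numbers shared by groups gave correlations between -0.26 and 0.18, so the replicate block, which fits ND, CLE and LU mice only, is no paired analysis.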

Other observations

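LU mouse 3 differed from the other LU mice in several genes at once. It had the lowest Srebf1 (12.6 FPKM, other LU mice 42.0 and 46.7), Gpam (30.3, others 44.3 and 48.5) and Gpat3 (4.45, others 6.72 and 13.7) and the highest Lpin1 (10.8, others 7.08 and 4.85) of its group. Its Mogat1, at 8.47 FPKM, was close to those of the others at 9.45 and 10.4. These genes were singled out after their values were seen, and no test was made of a single mouse.

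Gpat3 and Gpat4 code for enzymes of the same step, and their ratio within a liver (Gpat3 level divided by Gpat4 level) was 0.0326, 0.0311 and 0.0404 in ND and 0.158, 0.133 and 0.162 in HFD. In CLE the ratio was 0.144, 0.212 and 0.170, and in LU 0.0766, 0.0487 and 0.186. Every liver of the other groups lay above every ND liver, and the LU livers ran from below to above the HFD livers. The exact permutation p was 0.1 for HFD against ND, the smallest that 3 against 3 can give, and 0.4 for CLE and for LU against HFD. The ratio sets a gene called higher in HFD over a gene called lower, and each alone already separated HFD from ND. Its p for HFD against ND was therefore fixed by those values and adds nothing to the calls of the genes.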
